A study of Homo sapiens with 6 samples.

Results

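The genes examined were 7 genes for scaffold and structural proteins of nuclear speckles, SON, SRRM1, SRRM2, PNN, ACIN1, THRAP3 and BCLAF1, out of 19974 protein-coding genes on chromosomes 1 to 22 and X. They were chosen by name. Coordinates are 1-based and on hg38, and the gene table gives spans without exons, so a peak inside a gene is not placed in an exon or intron. Every peak that overlapped a gene's RefSeq span, or the 5 kb on each side of it, by at least 1 bp was assigned to the gene. Peaks came from 4 lists made by ChIPmentation, an assay in which a transposase inserts sequencing adapters into immunoprecipitated chromatin while it is held on beads. All samples were IMR90 cells, an established line of human embryonic lung fibroblasts with no genetic alteration named in the labels. SON was mapped without treatment and on days 3 and 6 of a treatment labelled ICM, which the labels do not expand, in cells fixed with formaldehyde. HMGB2, a high mobility group protein that binds DNA, was mapped in untreated cells fixed with the protein crosslinker EGS and then formaldehyde, so target and fixation cannot be told apart. The series asked how SON and HMGB2 relate to CTCF, genome folding and gene expression. There was 1 list per group, so no test between conditions was possible, and the remaining 2 samples, an HMGB2 input and a DSG-fixed HMGB2 library going by its title, were not analysed here.

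Nuclear speckles are bodies between chromatin regions that hold splicing factors and polyadenylated RNA. Many of their proteins carry stretches rich in arginine and serine, which are phosphorylated and through which the proteins associate. SON and SRRM2 form the core on which speckles assemble, and SRRM1 is a splicing coactivator that stays with spliced RNA. PNN (pinin) and ACIN1 (acinus) are alternative partners of RNPS1 and SAP18 in the PSAP and ASAP complexes, which dock on the exon junction complex, and THRAP3 and BCLAF1 are a related pair of proteins that act in splicing and export of mRNA. The SON protein was the target of the antibody in 3 of the lists, so the SON gene was also read for the protein's occupancy at its own gene.

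A peak of SON in untreated cells marked 6 of the 7 genes, and in every case the strongest lay over a transcription start. The stretches upstream of the 6 starts are shown because nearly all the values below refer to them. They are RefSeq sequence of GRCh38.p14, written 5′ to 3′ on the gene's strand, from 250 bases upstream to the base before the start. The stretch at SON was cut to 144 bases where the span of the neighbouring gene GART begins. Capitals mark the bases from the lowest to the highest summit, the position of greatest enrichment in a peak, among the SON lists that have a peak there.
SON (chr21:33542894-33543037, plus strand): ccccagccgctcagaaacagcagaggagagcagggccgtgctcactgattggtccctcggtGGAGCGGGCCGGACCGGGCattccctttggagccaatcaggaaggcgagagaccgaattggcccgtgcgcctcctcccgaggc
SRRM1 (chr1:24643052-24643301, plus strand): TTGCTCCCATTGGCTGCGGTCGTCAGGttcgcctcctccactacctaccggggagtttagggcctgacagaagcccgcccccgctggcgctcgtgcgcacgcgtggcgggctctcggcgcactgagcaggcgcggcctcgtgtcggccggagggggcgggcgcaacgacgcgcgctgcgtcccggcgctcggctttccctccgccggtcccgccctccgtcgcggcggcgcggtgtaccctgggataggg
SRRM2 (chr16:2752388-2752637, plus strand): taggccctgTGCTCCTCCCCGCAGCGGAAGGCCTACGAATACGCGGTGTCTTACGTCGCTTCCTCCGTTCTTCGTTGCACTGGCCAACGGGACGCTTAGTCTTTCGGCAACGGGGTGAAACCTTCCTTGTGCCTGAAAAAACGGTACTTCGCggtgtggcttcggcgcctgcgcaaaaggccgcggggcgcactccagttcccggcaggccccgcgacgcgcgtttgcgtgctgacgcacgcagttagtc
PNN (chr14:39175004-39175253, plus strand): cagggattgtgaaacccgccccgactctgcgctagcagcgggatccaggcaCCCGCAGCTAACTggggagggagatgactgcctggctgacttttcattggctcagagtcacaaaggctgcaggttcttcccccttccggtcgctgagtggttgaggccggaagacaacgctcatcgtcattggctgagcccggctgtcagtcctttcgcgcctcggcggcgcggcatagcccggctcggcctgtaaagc
THRAP3 (chr1:36224193-36224442, plus strand): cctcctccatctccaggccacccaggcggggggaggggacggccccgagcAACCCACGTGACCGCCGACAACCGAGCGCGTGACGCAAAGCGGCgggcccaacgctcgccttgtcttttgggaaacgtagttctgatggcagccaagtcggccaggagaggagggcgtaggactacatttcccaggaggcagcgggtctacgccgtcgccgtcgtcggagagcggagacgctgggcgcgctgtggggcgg
BCLAF1 (chr6:136289847-136290096, minus strand): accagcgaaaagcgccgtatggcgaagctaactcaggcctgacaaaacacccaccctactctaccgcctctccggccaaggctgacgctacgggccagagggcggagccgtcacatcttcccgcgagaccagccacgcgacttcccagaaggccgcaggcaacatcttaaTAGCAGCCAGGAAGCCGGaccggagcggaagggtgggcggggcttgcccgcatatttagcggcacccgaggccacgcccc

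The SON list of untreated cells marked 6 of the 7 genes (85.7%, 95% exact binomial interval 42.1 to 99.6%), against 57.1% of all protein-coding genes. At 3 days the same 6 genes carried a peak, against 41% of all genes. At 6 days 4 of the 7 did (57.1%, 18.4 to 90.1%), SRRM1, PNN, THRAP3 and BCLAF1, against 21.5% of all genes. With a global IDR, a measure of replicate agreement, not above 0.05, the 6-day count was 1, SRRM1, against 5.02% of all genes. The untreated and 3-day counts stayed at 6, so SRRM1 alone then had such a peak in every SON list. The share of all genes for the latter is not given here. HMGB2 marked 5 of the 7 (71.4%, 29.0 to 96.3%), SON, SRRM1, PNN, THRAP3 and BCLAF1, against 23.3% of all genes. SRRM1, PNN, THRAP3 and BCLAF1 carried a peak in every SON list, as did 20.3% of all genes, and in all 4 lists, as did 10.6%. Of all genes with an untreated SON peak, 70.2% had a peak at 3 days, 37.2% at 6 days and 37.9% an HMGB2 peak, against 6, 4 and 5 of the 6 genes here. Those genes had peaks of any strength. In the strongest 10% of untreated peaks, where all 6 genes here stood, the shares of peaks were 98.4%, 78.0% and 42.8%. A peak over a start window, the 250 bases upstream and 50 bases downstream of a RefSeq start, was present at 6, 6 and 4 genes in the SON lists and at 5 for HMGB2. Of 15812 protein-coding genes in the promoter table, 40.4%, 28.8%, 11.7% and 13.7% had such a peak. ACIN1 carried none in any list, as was the case for 40.3% of all genes. With 7 genes these intervals are wide, and they cover counting error only.

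**Figure D1:**
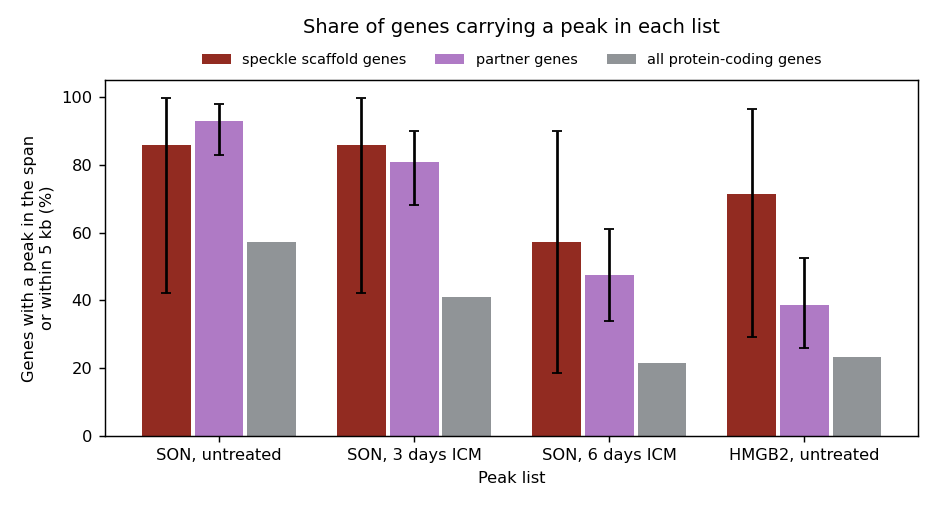
Share of genes with a peak in the span or within 5 kb (y axis, percent) in each of the 4 peak lists (x axis), for the 7 speckle scaffold genes, the 57 partner genes and all 19974 protein-coding genes; error bars are 95% exact binomial intervals for the first 2 sets. The scaffold genes stood at 85.7% in untreated cells and 57.1% at 6 days, against 57.1% and 21.5% of all genes; the 6-day count of 4 scaffold genes was 1 at a global IDR not above 0.05.

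The lists on chromosomes 1 to 22 and X held 22216 SON peaks without treatment, 11028 on day 3 and 5481 on day 6, beside 5992 HMGB2 peaks. Strength is the authors' −log10 p of a peak, for SON the lower of the values in 2 replicates, and its list median was 9.90, 9.06 and 8.50 for SON and 9.52 for HMGB2. It depends on the depth of the library, which is unknown, so values are read as ranks within their own list, and ranks in lists of different length show no change. The global IDR is the expected share of irreproducible peaks among those at least as consistent between the replicates, and lines up to 0.431, 0.447 and 0.63 were kept in the 3 SON lists. Of 9 fibroblast genes fixed as markers of the labelled cell type, the untreated SON list marked 8, the 3-day list 4, the 6-day list 3 and the HMGB2 list 4. Of 8 markers of blood, epithelium and endothelium, the same lists marked 3, 1, 0 and 0, and of all genes 57.1%, 41%, 21.5% and 23.3%. Peaks do not measure expression, so the label was not tested by this.

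At the scaffold genes the strongest untreated SON peaks ranked between 121 and 2152 of 22216, with a median −log10 p of 47.8. All 6 thus stood in the strongest 10% of the list, which begins at 25.1. The strongest peak per gene ran from 15.4 to 139 at 3 days over 6 genes, and from 8.33 to 32.5 at 6 days over 4 genes. Peaks over transcription starts were stronger than others throughout the untreated list, with a median of 14.0 for 6238 peaks over any start window in the promoter table and 9.04 for the remaining 15978. Among those 6238 peaks, the share that was weaker than the scaffold genes' peak ran from 77.3% at SRRM2 to 98.4% at SRRM1.

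**Figure D2:**
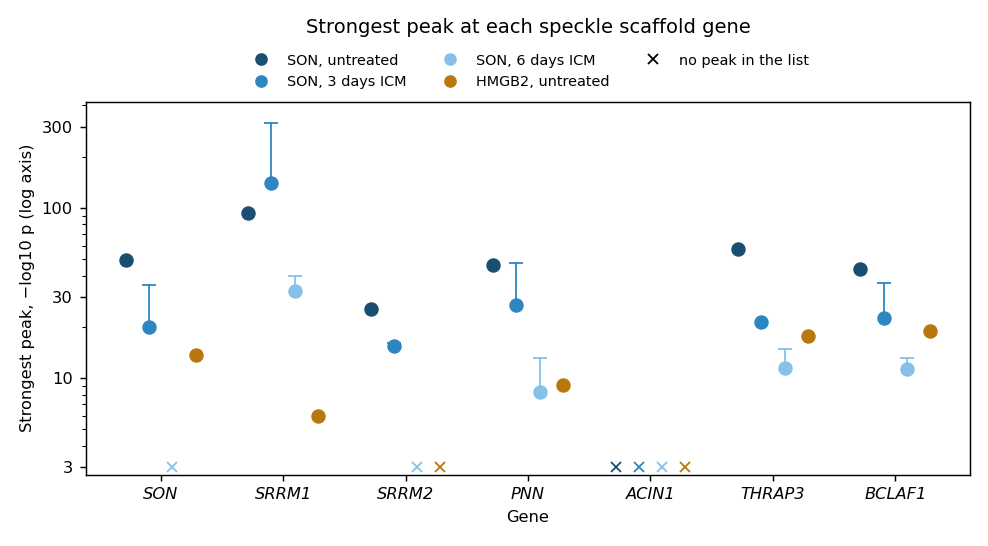
Strongest peak at each gene (x axis) in each list, as −log10 p on a log axis; points give the lower of the 2 replicate values for SON and the single value for HMGB2, thin lines reach to the higher replicate where the replicates differ, and crosses mark a list without a peak. SRRM1 had the highest SON value in all 3 SON lists and the lowest HMGB2 value, and the HMGB2 point of THRAP3 is its downstream peak in SH3D21.

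SON (chromosome 21, 33543038 to 33577481, plus strand) encodes the speckle core protein itself. Its only untreated SON peak, chr21:33542746-33543182, had a −log10 p of 49.6 (rank 484) and a global IDR of 0.00107. At 3 days the peak had 19.9 (rank 1328 of 11028) and an IDR of 0.00177, with 19.9 and 35.4 in the replicates. At 6 days the list held no peak there, and the nearest lay 51.1 kb from the gene. The gene encoding the antibody's target was thus marked in untreated cells and at 3 days and unmarked at 6 days.

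The start of SON faces the start of GART, a gene of purine synthesis that runs in the opposite direction. The untreated summit lay 65 bases upstream of the SON start and 81 bases from the GART start. The 3-day summit was 83 bases from SON and 63 from GART, and the HMGB2 summit 87 and 59. The peak covered both starts in each of the 3 lists, and it cannot be assigned to either gene. At its other end the SON gene adjoins DONSON, and no list held a peak in that part of the window.

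SRRM2 (chromosome 16, 2752638 to 2771412, plus strand), the other core scaffold gene, was the weakest of the 6 in untreated cells. Its peak, chr16:2752135-2753061, had a −log10 p of 25.5 (rank 2152) and an IDR of 0.00326. At 3 days the value was 15.4 (rank 2083), the IDR 0.0121 and the replicates 15.4 and 16.1. Neither the 6-day SON list nor the HMGB2 list held a peak there, and the nearest in both lay 111 kb away. SON and SRRM2, the 2 core scaffold genes, thus had a SON peak in untreated cells and at 3 days but none at 6 days. At a global IDR not above 0.05 the same held for PNN, THRAP3 and BCLAF1, so this was not particular to the core genes.

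SRRM1 (chromosome 1, 24643302 to 24673281, plus strand), the splicing coactivator gene, carried the strongest SON peak of the 7 genes in every SON list. The untreated peak, chr1:24642688-24643434, had a −log10 p of 93.1 (rank 121), and the 3-day peak had 139 (rank 56). At 6 days it had 32.5 (rank 86 of 5481). The global IDR was 0.000453, 1e-05 and 0.000295 in the same order. By the lower replicate value, SRRM1 was the only one of the 6 genes whose 3-day start peak had a higher −log10 p than the untreated one, as had 18.9% of the 10094 untreated peaks that overlapped a 3-day peak. The replicates at 3 days stood far apart at 139 and 314. The lists differ in unknown depth, so these values side by side show no change. HMGB2, by contrast, was weak here, at a −log10 p of 6.00, rank 5475 of 5992, and 2.74-fold enrichment.

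PNN (chromosome 14, 39175254 to 39183220, plus strand) is the shortest of the genes at 7.97 kb and carried 1 peak in each list. The SON peak had a −log10 p of 46.0 (rank 562) in untreated cells at chr14:39174695-39175328, 26.8 (rank 805) at 3 days and 8.33 (rank 2885) at 6 days. The replicates gave 26.8 and 47.4 at 3 days, the second above the untreated value, and 13.1 and 8.33 at 6 days. The 6-day IDR was 0.319, and 47.2% of the peaks in that list were weaker, so the 6-day peak stood near the middle of its list. For HMGB2 the −log10 p was 9.16 (rank 3256) and the fold 3.06. The antisense transcript PNN-AS1 covers the start, and the lists do not separate the strands.

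ACIN1 (chromosome 14, 23058564 to 23095614, minus strand), whose protein takes the place of PNN in the ASAP complex, had no peak in the span or within 5 kb in any list. Its window is larger than that of PNN and also overlaps C14orf119, CDH24 and CIROP. The nearest SON peaks lay 19.3 kb (untreated), 19.4 kb (3 days) and 19.4 kb (6 days) from the gene, the untreated one at chr14:23114919-23115432. The nearest HMGB2 peak lay 75.9 kb away. A list states only what passed the caller, so it says nothing of occupancy below that level.

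THRAP3 and BCLAF1, the related pair, both carried a peak over the start in all 4 lists. THRAP3 spans 36207637 to 36305357 on chromosome 1 (plus strand) and BCLAF1 136256627 to 136289846 on chromosome 6 (minus strand). The start used for THRAP3 lies inside its RefSeq span, not at the span's edge. At the THRAP3 start in the promoter table, base 36224443, the SON peak had a −log10 p of 57.2 (rank 347) in untreated cells at chr1:36223973-36224513, 21.4 (rank 1173) at 3 days and 11.4 (rank 1137) at 6 days. The IDR was 0.00087, 0.00638 and 0.0836. At the BCLAF1 start the SON peak had 43.9 (rank 630) in untreated cells at chr6:136289690-136290110, 22.6 (rank 1074) at 3 days and 11.3 (rank 1185) at 6 days. The IDR was 0.00128, 0.00144 and 0.0866. HMGB2 had a −log10 p of 10.7 (rank 2284) at the THRAP3 start and 18.9 (rank 429) at the BCLAF1 start. By the lower replicate value the 2 genes stood close in rank at 3 and 6 days, and they stood apart for HMGB2. Ranked by the mean of both replicates, THRAP3 and BCLAF1 stood at 1937 and 1322 at 3 days. At 6 days that ranking gave 1217 and 1473. No test of the differences was made.

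These 2 genes were also the only ones of the 7 with peaks away from the start. THRAP3, the longest gene at 97.7 kb, carried 5 untreated SON peaks. One of the weaker 4, chr1:36299936-36300271, lay inside the gene 75.7 kb downstream of the start and recurred in every SON list. Its −log10 p was 17.1, 11.9 and 9.88 and its IDR 0.0538, 0.0334 and 0.263, with no HMGB2 peak. In its strength class, the eighth of 10 equal ones, 69.1% of untreated peaks had a 3-day counterpart and 27.9% a 6-day counterpart. The interior peaks 24.1 kb and 61.2 kb downstream of the start, with 9.01 and 6.86 and an IDR of 0.0830 and 0.431, were in the untreated list alone. In the strength class of the first, 31.5% of untreated peaks had a 3-day counterpart and 11.7% a 6-day one. In that of the second, 16.1% and 6.62% did, so absence later was the common case for both.

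The fifth THRAP3 peak, chr1:36306839-36307250, lay beyond the gene's end, inside the neighbouring gene SH3D21. It had a −log10 p of 8.87 in untreated cells and 7.22 at 3 days and was not in the 6-day list. The IDR was 0.0162 and then 0.447, the highest kept in the 3-day list. In its strength class 31.5% of untreated peaks had a 3-day counterpart and 11.7% a 6-day one. HMGB2 was strong at this SH3D21 site, with 17.6 (rank 555) and a fold of 8.12, the highest fold of the 7 HMGB2 peaks at these genes. BCLAF1 carried a second SON peak inside the gene, chr6:136288679-136289080, with 13.7 and its summit 1005 bases downstream of the start in untreated cells. An overlapping 3-day peak of 835 bases had 8.09 and its summit 526 bases downstream, and there was no 6-day peak. The IDR was 0.00879 in untreated cells and 0.0855 at 3 days. An HMGB2 peak overlapped the untreated one, its −log10 p being 6.57, a rank of 5199. In the strength class of this BCLAF1 peak, 54.9% of untreated peaks had a 3-day counterpart and 18.0% a 6-day one.

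**Figure D3:**
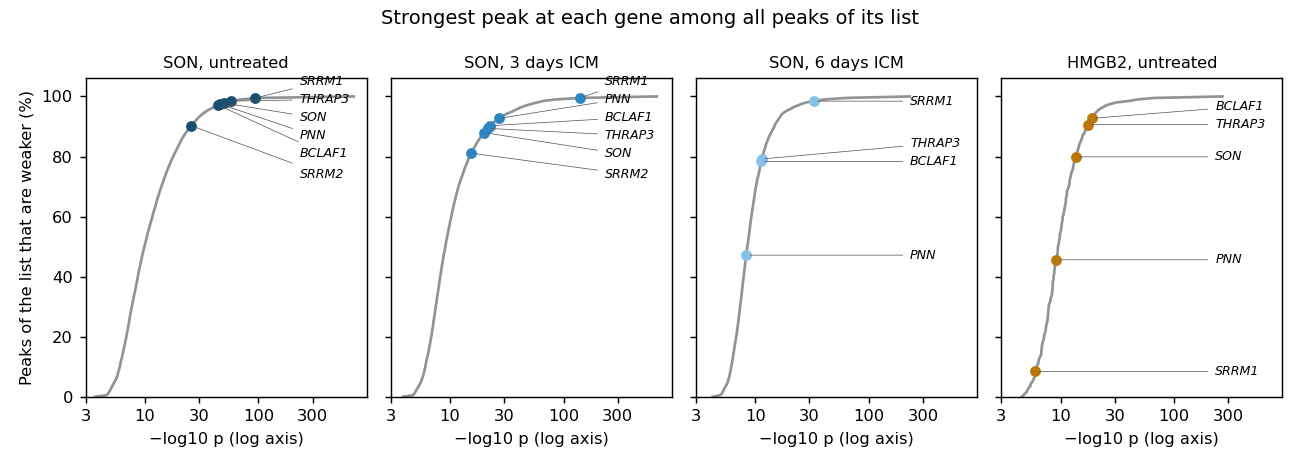
Strongest peak at each gene (labelled points) on the cumulative curve of its list (grey), with −log10 p on a log x axis and the percentage of weaker peaks on the y axis, 1 panel per list. In untreated cells all 6 points lie at 90.3% or higher, while at 6 days PNN lies at 47.2% and in the HMGB2 list SRRM1 lies at 8.43%.

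The 6 untreated start peaks were set beside untreated peaks of like strength. In the strongest 10% of the untreated list, 98.4% of peaks overlapped a 3-day peak, 78.0% a 6-day peak and 42.8% an HMGB2 peak. All 6 start peaks were found at 3 days and 4 of the 6 at 6 days, and 5 of the 6 overlapped an HMGB2 peak. Since this class spans a wide range, the 500 peaks nearest in rank to each were also taken, a choice made after seeing the data. Of the peaks nearest to that of SON, 91.8% were found at 6 days, and that of SON was not. Of those nearest to SRRM2, 57.0% were found at 6 days. For the 4 genes whose peak was found at 6 days the share was 97.6% near SRRM1, 95.6% near THRAP3, 90.2% near PNN and 88.6% near BCLAF1. A missing 6-day peak was therefore the less frequent case near both SRRM2 and SON, and rarer near SON, as a description of 1 list per condition. The strongest 10% of the list, which held both peaks, gives 78.0% for both and does not separate them. The share overlapping an HMGB2 peak was 52.0% near SON, 49.0% near SRRM1, 52.0% near PNN, 52.2% near THRAP3 and 51.2% near BCLAF1. Near SRRM2, the only 1 of the 6 without an HMGB2 peak, it was 32.8%.

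**Figure D4:**
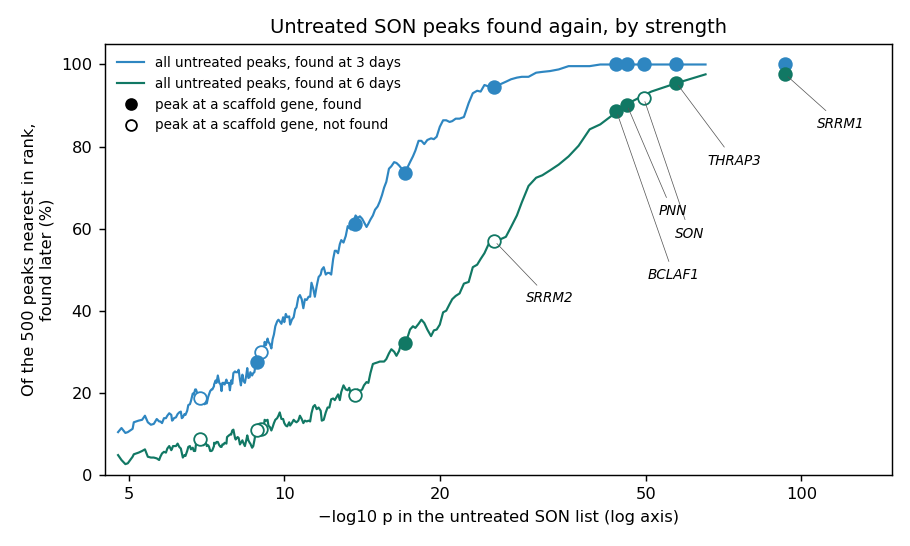
Share of the 500 untreated SON peaks nearest in rank that overlapped a 3-day or 6-day peak (y axis, percent) against untreated −log10 p (log x axis); lines run over the whole list, and circles are the 11 untreated peaks at the scaffold genes, filled where that peak was itself found and open where it was not. SON is the open circle at 91.8% on the 6-day line and SRRM2 the open circle at 57.0%.

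Replicate agreement bore unevenly on these values. In untreated cells both replicates had exactly the same −log10 p at 9 of the 11 peaks of these genes, including all 6 start peaks, as did 56.0% of the list. At 3 days this held for 3 of 9 peaks, against 28.9% of the list, and at 6 days for 0 of 5, against 9.47%. The equal values give no spread, and how they arose is not stated. All 6 marked genes had an untreated peak with a global IDR not above 0.05, against 45% of all genes by the same rule, and all 6 had such a peak at 3 days, against 24%. At 6 days SRRM1 alone had one, against 5.02% of all genes. The 6-day peaks at PNN, THRAP3 and BCLAF1 thus rest on values that the replicates did not reproduce to that level. In the whole lists, 59.7% of untreated, 41.4% of 3-day and 14.997% of 6-day peaks had a global IDR not above 0.05. Most peaks of the 6-day list thus missed that level, so missing it was not particular to these genes.

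The summits kept nearly the same place from list to list. All 21 start peaks over the 4 lists had their summit upstream of the gene's start, from 262 to 63 bases, with a median at -187. In the whole untreated SON list, 88.2% of the 5769 summits within 500 bases of a protein-coding start lay upstream of it, with a median at -89. In the HMGB2 list 84.0% did, so an upstream summit is the common case. Between untreated cells and 3 days the SON summit differed by 18 bases at SON, 3 at SRRM1, 5 at PNN, 24 at THRAP3 and 17 at BCLAF1. The median over all 10094 such pairs was 28 bases. SRRM2 differed by 142 bases, beyond the 50 bases within which 74.2% of pairs fell. Its peak was also the widest, at 927 bases in untreated cells and 986 at 3 days.

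**Figure D5:**
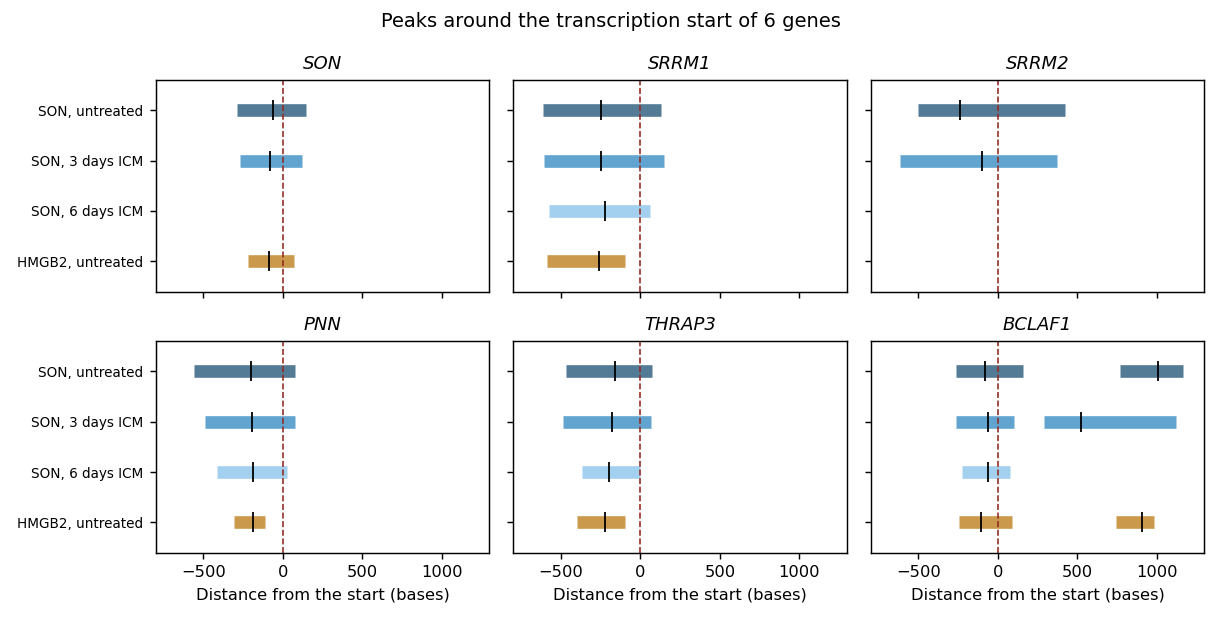
Peaks (bars) and their summits (black ticks) around the start of the 6 genes that carry peaks, as distance from the start in bases along the gene's strand, with 1 row per list and the start as a dashed line. The start-peak summits of each gene lie within 63 bases of the untreated one except at SRRM2, where the 2 SON lists differ by 142 bases, and the second peak of BCLAF1 has its summit at 1005 bases in untreated cells and 526 at 3 days.

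HMGB2 summits lay close to those of SON. The distance to the untreated SON summit was 22 bases at SON, 12 at SRRM1, 10 at PNN, 63 at THRAP3 and 24 at BCLAF1, against a median of 37 over 3664 overlapping pairs. In all 5 genes the HMGB2 start peak lay wholly inside the untreated SON peak, as in 76.3% of those pairs. HMGB2 fold enrichment was modest at these starts, with 4.12 at SON, 2.74 at SRRM1, 3.06 at PNN, 3.06 at THRAP3 and 5.45 at BCLAF1. In 4 of these 5 it was below 4.71, the median over all HMGB2 peaks at start windows. The p-based rank and the fold-based rank differed widely, with 1202 against 4265 at SON and 429 against 2143 at BCLAF1. The order of the genes by HMGB2 did not follow that by SON, since SRRM1 was first in SON and last in HMGB2.

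All 6 starts with a peak held more CpG than the median start. The window of 300 bases around each start, 250 upstream and 50 downstream, held 46 CpG at SRRM1, 38 at SRRM2, 34 at THRAP3, 29 at BCLAF1, 26 at SON and 23 at PNN. The median over all 35116 windows of the table was 14, with quartiles of 4 and 28. The first start of ACIN1, the gene without a peak, held 19, also above that median. ACIN1 has 2 further starts in the table, with 27 CpG, more than at SON or PNN, and 5 CpG. The count thus did not set the marked genes apart from ACIN1.

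Motifs were searched on both strands in these windows, and a match is a description of the letters only. GGGCGG, the SP/KLF box, was found at SRRM1, THRAP3, BCLAF1, PNN and ACIN1, 5 of the 7 genes, and in 45.0% of all windows. CCAAT, the NF-Y box, was found at SON, SRRM1 and PNN and in 34.6% of all windows. A further start of ACIN1, the gene without a peak, also holds 1 CCAAT match, at -160. SON had 3 such boxes, with first bases at -97, -51 and -27 from the start, on either side of the capitals in its sequence. In SRRM1 a box on the opposite strand at -242 fell inside the capitals. The NRF1 motif was found at SRRM2 alone and in 5.78% of all windows. CCGGAAGT, the ETS motif, was found at ACIN1 alone and in 4.14%. The CTCF consensus was found at none of the 7 starts used and in 2.41% of all windows. Another ACIN1 start, which has no peak, holds 1 match. The YY1 motif and TATAAA, the TATA box, were found in none of these windows and in 1.44% and 11.5% of all. The YY1 motif had 1 match in each of the 2 further SRRM1 start windows of the table.

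Partner genes, a list chosen by name, were read in the same way, 57 of 59 being matched by symbol. They were 7 genes of the exon junction complex and its partners, 13 of the TREX complex, and 37 others for speckle or arginine- and serine-rich proteins. Untreated SON peaks marked 53 of the 57 (93.0%, 83.0 to 98.1%), those of day 3 marked 46 (80.7%) and those of day 6 marked 27 (47.4%). HMGB2 marked 22 (38.6%). The shares of all genes were 57.1%, 41%, 21.5% and 23.3%. Of 7 genes of the exon junction complex and its ASAP and PSAP partners, the untreated SON list marked all 7, the 3-day list 5 and the 6-day list 2. RNPS1 and SAP18, the partners that ACIN1 and PNN share, both carried SON peaks, with a −log10 p of 19.4 and 34.7 in untreated cells. ACIN1 was thus the only gene of the 2 complexes without a SON peak in untreated cells. Of 13 genes of the TREX complex, which couples splicing to mRNA export, the untreated list marked 11, the 3-day list 9 and the 6-day list 9. Of 37 other genes for proteins rich in arginine and serine or found in speckles, the numbers were 35, 32 and 16.

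A peak in all 4 lists was found at 14 of the 57 partner genes, against 10.6% of all genes. The 6 strongest by untreated SON were ARGLU1 with a −log10 p of 103, LUC7L2 with 90.7, ZC3H11A with 55.3, SCAF1 with 55.3, EIF4A3, the helicase of the exon junction complex, with 48.4, and CHTOP with 37.2. Only ARGLU1 of these exceeded SRRM1 in untreated cells, and like SRRM1 it had a high rank at 6 days, 70 of 5481. LUC7L2 ranked 130, 96 and 127 in the SON lists, beside 121, 56 and 86 for SRRM1. Untreated SON peaks were absent from BUD13, SRRM4, THOC3 and THOC7, 4 of the 57. SRRM4 is a splicing factor of neurons.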

How the data were processed

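Peak lists of 4 samples were used. The submitters' processing notes name bcl2fastq 2.17, Bowtie2, MACS2, deepTools and the build hg38, without their roles or order. Each SON list has the IDR layout for 2 replicates. The authors deposited −log10 p per replicate and its lower value, the −log10 of the IDR and a scaled score. For HMGB2 the authors deposited a fold ratio, −log10 p, −log10 q and a score, and the peak names state a q cutoff of 0.03. How replicates were made or pooled, and the sequencing depth, are not given in the sources used here.

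Gene spans and start windows came from RefSeq tables of GRCh38.p14. All 7 genes matched both tables. The start used was the RefSeq start nearest the untreated SON peak, and the most upstream one for ACIN1. Peaks on chromosomes 1 to 22 and X entered, and ranks were taken within each list by −log10 p. With 1 list per group no test was made. Gene assignment was tested on simulated data against direct comparison. Protein sequence features were not analysed here. Named partner genes were those with a peak in all 4 lists (the 6 highest untreated SON ranks) and those with none in the untreated SON list. The genes and lists were chosen with earlier results of these data known. Alternatives covered the window, the threshold, list length, summit overlap, each replicate's value and the ranking measure. Tools were matplotlib 3.10.9, scipy 1.17.1, pandas 2.3.3, numpy 2.4.6 and Python 3.11.15.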

Additional observations from a re-analysis of the deposited data

How the results depend on the processing

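Across 36 alternative settings of the 4 counts of marked genes, 32 stayed within 1.5 times the reported count. The count at 6 days fell from 4 to 1, SRRM1, when peaks had to reach a global IDR of 0.05, and likewise 0.01. The HMGB2 count fell from 5 to 3 with no extension of the gene span, which leaves out the peaks just upstream of SRRM1 and PNN, and to 3 with the stronger 50% of the list. The cause of the changes with the threshold was not tested. In every setting for SON in untreated cells and at 3 days the count was 5 or 6, and ACIN1 had no peak in any of the 36. With peaks limited to within 1 kb of either span end, THRAP3 had no peak in any list. The THRAP3 start used, base 36224443, lies inside the span, which begins at 36207637. Among genes with spans between those of PNN and THRAP3, 11858 in all, the share with a peak was 60.6% (untreated), 43.5% (3 days) and 21.5% (6 days) for SON, and 24% for HMGB2. Replacing the lower replicate value by the higher raised the strength at 2 of 11 untreated peaks, 6 of 9 at 3 days and 5 of 5 at 6 days, at most from 139 to 314 at SRRM1, and at the others the replicates were equal. Ranking by the mean of both replicates moved SRRM2 from 2083 to 2908 and THRAP3 from 1173 to 1937 at 3 days. It moved PNN from 2885 to 2131 at 6 days. Depth is unknown, and with 1 list per group no list could be left out.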

Other observations

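For each gene that carried a peak, the protein-coding gene with the most similar pattern was found, by the distance between the percentages of weaker peaks in the 4 lists, counting 0 where no peak was present and leaving out genes that share a peak. The 4 lists differ in length and the measure rests on 4 values, so it describes the lists only. SRRM2 was nearest to PTP4A1, a phosphatase gene, with 90.3% and 90.3% in untreated cells, 81.1% and 81.6% at 3 days, and no peak for either at 6 days or with HMGB2. SRRM1 was nearest to C2CD3, with 98.4% and 97.2% at 6 days and 8.43% and 9.23% for HMGB2. BCLAF1 was nearest to DDX17, an RNA helicase gene, with 78.4% and 80.6% at 6 days and 92.7% and 93.3% for HMGB2. THRAP3 was nearest to PPRC1 and PNN to SERP1, at distances of 2.16 and 3.17 percentage points. SON had the least close neighbour, CPEB4, at 4.73. CPEB4 had a 6-day SON peak, with 0.164% of that list weaker, while SON had none.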
